A study of Mus musculus with 12 samples.

Results

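The paired box (Pax) genes Pax1, Pax2, Pax3, Pax5, Pax6, Pax7, Pax8 and Pax9 were followed in the maxillary prominence of the mouse embryo, the facial swelling that forms the upper jaw and the palatal shelves. They were chosen by family membership, by matching the gene identifiers of the deposited count files to mouse symbols, and are 8 of 53801 genes listed. The RNA, selected for poly(A), came from wild-type C57BL/6 embryos of 4 ages, E10.5, E11.5, E12.5 and E14.5 (embryonic day), and each age has 3 of the 12 libraries. No genetic change or treatment was applied, and the prominences were dissected by hand from littermates, with mesenchyme, surface epithelium, vessels and nerves together. Separate litters are not stated for the libraries of a stage, and p-values therefore measure only how far these libraries differ among themselves. All E14.5 libraries have sample numbers apart from the consecutive run of the other stages. Whether they were prepared separately is not stated, and any such difference could not be told apart from stage at E14.5.

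Pax proteins are transcription factors that bind DNA through a paired domain, and close paralogues share the rest of their structure. Pax1 and Pax9 lack a homeodomain and act in pharyngeal endoderm and in mesenchyme of the vertebral column, face and teeth, where Pax9 is needed for the palate in the mouse. Pax3 and Pax7 carry a full homeodomain and mark neural crest, dorsal neural tube and muscle progenitors. Pax2, Pax5 and Pax8 keep part of the homeodomain and are known from kidney, ear, midbrain-hindbrain boundary, thyroid and B cells, and Pax6 is the regulator of eye, nasal placode and forebrain.

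Libraries held 28294837 to 33941430 counts in genes. Levels are counts-per-million (CPM) relative to all counts in genes, and the makeup of the family is given in CPM per kilobase of exon. The labelled tissue was checked on 12 markers of facial mesenchyme, all of which were counted in every library. They summed to 7089 to 8975 CPM at E14.5 and 1748 to 1987 CPM at E10.5. The collagen gene Col1a2 led that difference (mean 5137 CPM at E14.5 and 219 at E10.5). Of the 12, 3 were higher and 8 lower at E14.5 against E10.5 (median log2 fold change -0.68), where 36.6% of all genes tested were higher and 33.8% lower. Alignments assigned to no annotated feature are called outside genes here. The feature type counted is not stated, so they may include alignments in introns. They made up 5.03% to 6.21% of those listed in E12.5 and E14.5 libraries and 2.16% to 2.42% in E11.5 libraries. In E10.5 replicates 1, 2 and 3 they made up 2.67%, 1.92% and 4.88%. This measure moved with stage, so a difference between stages and a difference in this share cannot be fully told apart. Within E11.5, E12.5 and E14.5 it varied little. A fit with both therefore estimates differences between stages far apart in this share less precisely, and a call lost there does not decide between them. In bulk tissue, fewer cells of a type and less RNA per cell cannot be told apart either.

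Pax1, Pax3 and Pax9 were the abundant members, Pax7 rose late, Pax6 and Pax2 were low, and Pax5 and Pax8 were near the limit of counting. Summed over the 8 genes, the level per kilobase of exon was 7.65 ± 1.15 CPM at E10.5, 29.8 ± 5.58 at E11.5, 24.2 ± 5.38 at E12.5 and 21.0 ± 0.831 at E14.5 (SD, n = 3 each). Its makeup differed by stage. At E10.5, Pax3 held 48.3 ± 10.4% of that sum and Pax9 36.4 ± 16.8%, and E10.5 replicate 3 stood apart with 55.7% Pax9. At E11.5, Pax1 held 44.8 ± 5.82% and Pax3 38.1 ± 5.48%. At E12.5, Pax9 held 80.4 ± 2.25%, from 78.8% to 83.0% in the 3 libraries. At E14.5, Pax9 held 35.3 ± 4.36%, Pax1 29.2 ± 9.0%, Pax3 23.4 ± 5.42% and Pax7 11.4 ± 1.63%. These shares are descriptions, since a share falls whenever another member is higher.

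**Figure D1:**
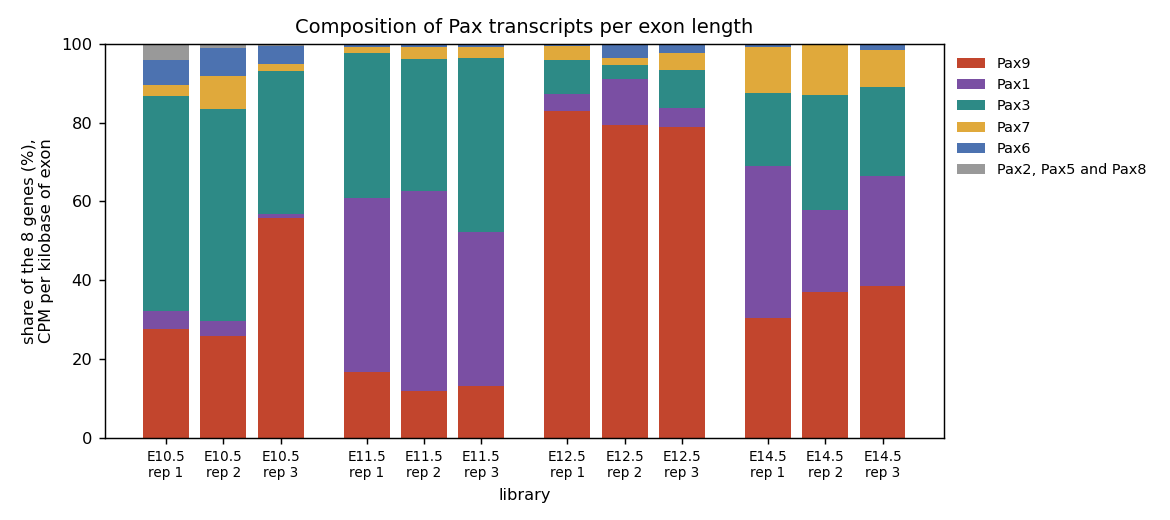
Share of each gene in the summed level of the 8 Pax genes, in CPM per kilobase of exon (percent, y axis), for each of the 12 libraries (x axis, by stage). Pax9 fills 78.8% to 83.0% of the bars at E12.5, while Pax1 and Pax3 together fill most of the bars at E11.5.

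Of the 8 genes, 6 had enough counts to be tested with edgeR's quasi-likelihood test across 18365 genes (Benjamini-Hochberg adjusted p under 0.05), and Pax5 and Pax8 did not. All 6 differed among the 4 stages, where 81.6% of all genes tested did so. At E11.5 against E10.5, 3 were higher and 0 lower, where 25.1% of all genes passed (12.2% higher, 12.9% lower). By edgeR's test 1 member, Pax2, was lower there before adjustment, at a threshold of 0.05, and DESeq2 and limma-voom also passed 3 higher and 0 lower. At E12.5 against E11.5, 1 was higher and 2 were lower, where 49.3% of all genes passed (27.1% higher, 22.2% lower), so 3 of 6 is close to the background. At E14.5 against E12.5, 3 were higher and 2 lower, where 47.1% of all genes passed (23.0% higher, 24.0% lower). Over the whole course, E14.5 against E10.5, 3 were higher and 2 lower, where 70.4% of all genes passed (36.6% higher, 33.8% lower). Comparisons across 2 steps were used to order the stages: at E12.5 against E10.5, 2 were higher and 1 lower (53.5% of all genes, 28.0% higher and 25.5% lower), and at E14.5 against E11.5, 2 were higher and 2 lower (69.9% of all genes, 37.2% higher and 32.7% lower). Over all genes tested, log2 fold changes had medians between -0.04 and 0.06 in the 3 steps and the whole course.

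**Figure D2:**
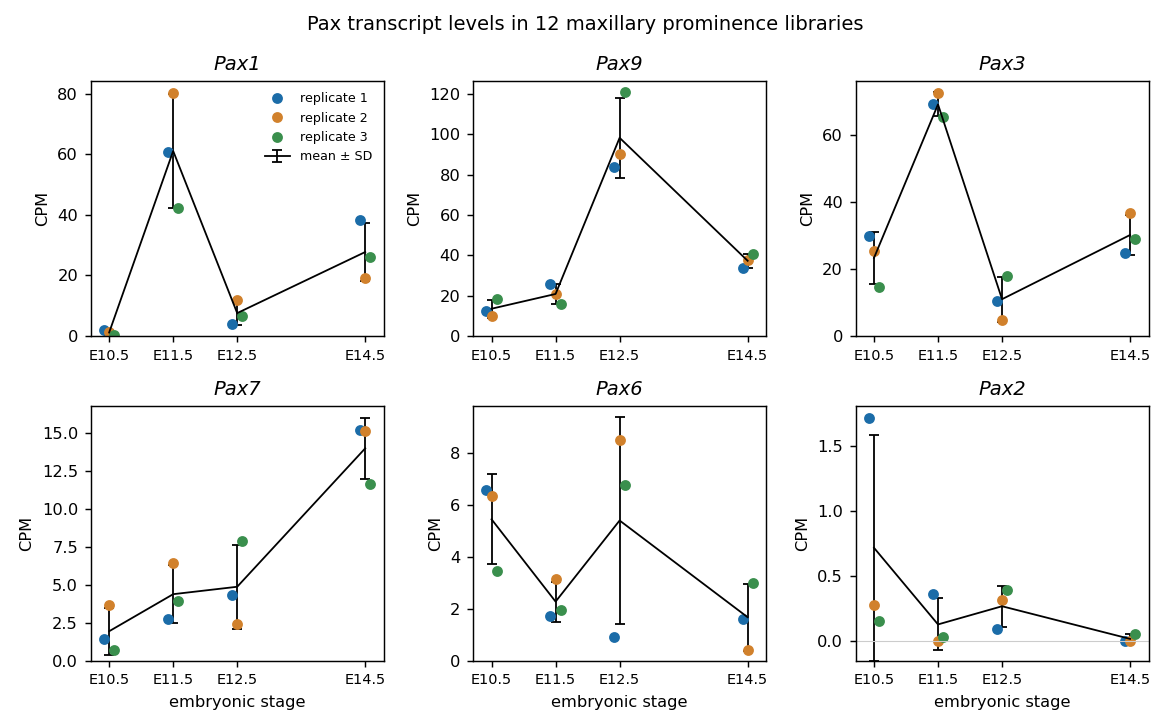
Level of Pax1, Pax2, Pax3, Pax6, Pax7 and Pax9 (y axes, CPM, a different scale in each panel) at the 4 stages (x axis, spaced by embryonic day); points are libraries and bars the mean ± SD of 3. Pax1 and Pax3 peak at E11.5 with 61.0 and 69.1 CPM, Pax9 at E12.5 with 98.2 CPM and Pax7 at E14.5 with 14.0 CPM.

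Pax1 and Pax9, close paralogues without a homeodomain, changed in opposite directions at 2 of the 3 steps: at E12.5 against E11.5 Pax1 fell and Pax9 rose, and at E14.5 against E12.5 it was the other way round. Pax3 moved with Pax1 at both steps. The Pax1 gene (ENSMUSG00000037034) has 7 merged exon blocks on the plus strand at chr2:147361925-147393295, and Pax9 (ENSMUSG00000001497) has 4 on the plus strand at chr12:56691767-56712822 (mm10). The promoter windows of this pair are shown for comparison, each with 250 bases before and 50 after a RefSeq start (GRCm38.p6, plus strand, chr2:147364744-147365043 for Pax1 and chr12:56695221-56695520 for Pax9), in lower case with matches to the GC box GGGCGG, the CCAAT box, the TATA box TATAAA or the LEF/TCF core CTTTGA on either strand in capitals. Both windows lie inside the longer gene spans given above.
Pax1: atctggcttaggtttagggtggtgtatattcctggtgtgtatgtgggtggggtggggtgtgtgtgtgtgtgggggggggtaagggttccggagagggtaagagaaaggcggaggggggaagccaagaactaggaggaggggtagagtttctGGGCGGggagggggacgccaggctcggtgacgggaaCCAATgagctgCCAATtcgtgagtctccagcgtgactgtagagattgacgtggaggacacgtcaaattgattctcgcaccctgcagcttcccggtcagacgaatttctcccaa
Pax9: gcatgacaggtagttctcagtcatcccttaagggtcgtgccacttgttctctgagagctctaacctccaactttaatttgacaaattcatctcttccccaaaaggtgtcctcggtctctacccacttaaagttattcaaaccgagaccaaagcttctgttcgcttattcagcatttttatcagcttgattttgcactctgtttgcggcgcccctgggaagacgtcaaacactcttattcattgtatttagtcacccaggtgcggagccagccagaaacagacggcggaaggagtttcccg

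The Pax1 window held 57.3% G and C and 13 CpG dinucleotides, and the Pax9 window 47% and 11, beside medians of 52.7% and 7 over 32851 RefSeq windows of the same length. Counting from the start, with the first base of the annotated transcript as 1, the Pax1 window had a GC box at -99 and CCAAT boxes at -63 and -52. The Pax9 window held none of the 4 capitalised motifs, which were found in 35.7% (GC box), 37.4% (CCAAT box), 13.6% (TATA box) and 16% (LEF/TCF core) of all windows. An E-box (CANNTG on either strand, in 72.3% of all windows) lay at -210 and at 6 in Pax9 and was not matched in Pax1. These matches describe letters in a window and say nothing about which factors bind. RefSeq windows were matched for 7 of the 8 genes, without Pax3.

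Pax1 had 1.84, 1.29 and 0.345 CPM in the 3 libraries of E10.5, 60.7, 80.1 and 42.3 at E11.5, 3.99, 12.0 and 6.73 at E12.5, and 38.1, 19.0 and 26.0 at E14.5. Libraries of any 2 consecutive stages did not overlap. The gene was scarce at E10.5, most abundant at E11.5, low again at E12.5 and intermediate at E14.5. Its level was 50.9-fold higher at E11.5 than at E10.5 (log2 fold change 5.67, SE 0.50, adjusted p = 4.81e-06). At E12.5 against E11.5 its log2 fold change was -3.22 (SE 0.41, adjusted p = 6.88e-05). At E14.5 against E12.5 it rose by 1.79 (SE 0.40, adjusted p = 0.00258). In order of level the stages ran E11.5, E14.5, E12.5 and E10.5, and each neighbouring pair in that order differed, with E14.5 against E11.5 at -1.43 (adjusted p = 0.00407) and E12.5 against E10.5 at 2.45 (adjusted p = 0.00130). With the percentage of alignments outside genes in the model, the fall at E12.5 was -2.37 with a larger SE of 1.28, and no longer passed (adjusted p = 0.321).

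Pax9 had 12.3, 9.95 and 18.4 CPM at E10.5, 25.7, 21.0 and 15.9 at E11.5, 83.8, 90.0 and 120.7 at E12.5, and 33.6, 37.9 and 40.4 at E14.5. The E12.5 libraries were the highest and did not overlap any other stage, while E10.5 and E11.5 overlapped in 1 library each. Pax9 rose by 2.01 (log2) at E12.5 against E11.5 (SE 0.19, adjusted p = 6.84e-06), a 4.04-fold higher level. It fell by 1.46 at E14.5 against E12.5 (SE 0.18, adjusted p = 3.51e-05). It stayed above the start of the course, by 1.15 at E14.5 against E10.5 (SE 0.19, adjusted p = 0.000103), though not with the percentage of alignments outside genes in the model (0.62, adjusted p = 0.124). The stages ran E12.5, E14.5, E11.5 and E10.5 in order of level.

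The rise of Pax9 at E11.5 against E10.5 was small, 0.60 on the log2 scale (SE 0.19, adjusted p = 0.0345), and did not pass when any of 4 libraries was left out. The adjusted p was 0.103 without E10.5 replicate 1, 0.108 without E10.5 replicate 2, 0.159 without E11.5 replicate 1 and 0.0845 without E11.5 replicate 2. It was 0.0601 with those 2 stages fitted alone. The rise at E12.5 was 1.42 (adjusted p = 0.0308) with the percentage outside genes in the model. Pax9 shares 189 bases of exon (3.74% of its length) with Slc25a21 on the opposite strand, and the library kit does not mark strand, so reads there cannot be assigned by strand. The same holds for 183 bases of Pax1 (4.07% of its length), shared with AI646519.

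The proportion of Pax1 to Pax9 was compared directly within each library, as the log2 ratio of CPM + 0.05. The ratio is not corrected for exon length (4492 bases in Pax1 and 5056 in Pax9), which would shift all libraries by the same amount. It was -3.71 ± 1.59 at E10.5, 1.53 ± 0.36 at E11.5, -3.81 ± 0.79 at E12.5 and -0.48 ± 0.60 at E14.5 (SD, n = 3 each). Pax1 had the more counts of the pair in all 3 E11.5 libraries and the fewer in all libraries of E10.5 and E12.5. An exact permutation test over 369600 arrangements of the 12 libraries gave p = 0.000714 for a difference among stages (adjusted p = 0.00143 over the 2 pairs tested).

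**Figure D3:**
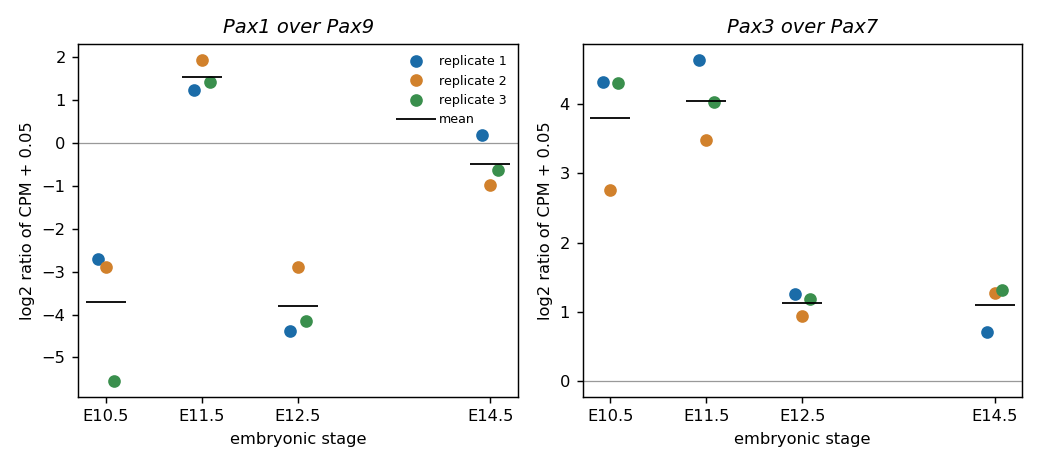
Log2 ratio of CPM + 0.05 (y axes) of Pax1 over Pax9 and of Pax3 over Pax7 in each library, by stage (x axis); points are libraries and dashes stage means. The Pax1 over Pax9 mean is above 0 only at E11.5 (1.53), and the Pax3 over Pax7 mean is 1.13 at E12.5 and 1.1 at E14.5, below the 3.80 and 4.05 of the earlier stages.

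Pax3, a regulator of neural crest and muscle progenitors (ENSMUSG00000004872, minus strand, chr1:78101267-78197134), had 29.8, 25.4 and 14.7 CPM at E10.5, 69.3, 72.5 and 65.4 at E11.5, 10.4, 4.65 and 17.9 at E12.5, and 24.9, 36.5 and 29.0 at E14.5. The E11.5 libraries were close to each other and above all others, and E10.5 and E12.5 overlapped. Pax3 rose by 1.52 (log2) at E11.5 against E10.5 (SE 0.34, adjusted p = 0.00514). It fell by 2.89 at E12.5 against E11.5 (SE 0.36, adjusted p = 5.64e-05), a 7.39-fold lower level. It rose by 1.40 at E14.5 against E12.5 (SE 0.35, adjusted p = 0.00526). E14.5 and E10.5, neighbours in the order of levels, were not told apart (0.04, SE 0.34, adjusted p = 0.929, and 1.23, adjusted p = 0.0966, with the percentage outside genes in the model), while E12.5 was below E10.5 (-1.36, adjusted p = 0.00522) and E14.5 below E11.5 (-1.48, adjusted p = 0.00144). With the percentage outside genes in the model, the fall at E12.5 was -1.69 with a larger SE of 0.55, and did not pass (adjusted p = 0.107).

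Pax7, the closest paralogue of Pax3 (ENSMUSG00000028736, minus strand, chr4:139737062-139833528), had 1.44, 3.68 and 0.691 CPM at E10.5, 2.73, 6.45 and 3.96 at E11.5, 4.31, 2.40 and 7.88 at E12.5, and 15.2, 15.1 and 11.6 at E14.5. The first 3 stages overlapped and the E14.5 libraries stood above all others. Pax7 was 5.64-fold higher at E14.5 than at E10.5 (log2 fold change 2.50, SE 0.52, adjusted p = 0.000762). That value was 3.39 without E10.5 replicate 2 and 5.04 (SE 0.93) with the percentage outside genes in the model. Pax7 rose by 1.47 at E14.5 against E12.5 (SE 0.49, adjusted p = 0.0252), and by 2.06 with that term. That call was lost without E12.5 replicate 1 (adjusted p = 0.0680), E12.5 replicate 2 (0.0903), E14.5 replicate 1 (0.0662) or E14.5 replicate 2 (0.0634). By mean CPM, E12.5 (4.86), E11.5 (4.38) and E10.5 followed, and these neighbours did not differ beyond the spread (log2 fold changes -0.08 for E12.5 against E11.5, where TMM scaling turns the order of the means, and 1.11 for E11.5 against E10.5, adjusted p = 0.902 and 0.141).

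E10.5 replicate 2 held 3.68 CPM of Pax7 and stood above the other two. Without it, Pax7 rose by 2.05 at E11.5 against E10.5 (adjusted p = 0.0122). That library was also the highest of its stage for 11 of 16 genes on a list for midbrain-hindbrain, hindbrain and spinal cord. From that list, and chosen after its values were seen, Olig3, a factor of dorsal hindbrain and spinal cord, had 0.0625, 3.75 and 0 CPM in E10.5 replicates 1, 2 and 3. Fabp7, a fatty acid binding protein of radial glia and crest glia also picked after its values were seen, had 30.7, 105.4 and 21.4 CPM at E10.5, and 11.6, 84.9 and 9.31 at E11.5. Replicate 2 was the highest for Pax7 and Fabp7 at both stages, while Olig3 was at 0 in all 3 E11.5 libraries. Summed CPM of the 16 genes ranged over 18.9 to 23.0 at E14.5, 9.90 to 18.8 at E12.5, 8.15 to 9.67 at E11.5 and 8.91 to 18.4 at E10.5. The part of such tissue in the Pax7 values was not tested.

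The log2 ratio of Pax3 to Pax7 was 3.80 ± 0.90 at E10.5, 4.05 ± 0.58 at E11.5, 1.13 ± 0.17 at E12.5 and 1.1 ± 0.33 at E14.5 (SD, n = 3 each). The ratios of the 2 later stages lay between 0.71 and 1.31, those of the 2 earlier stages between 2.77 and 4.64, with no overlap. The exact permutation test gave p = 0.00545 for a difference among stages (adjusted p = 0.00545). Pax3 had the more counts of the pair in every library, with 6187 bases of exon beside 5860 in Pax7.

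**Figure D4:**
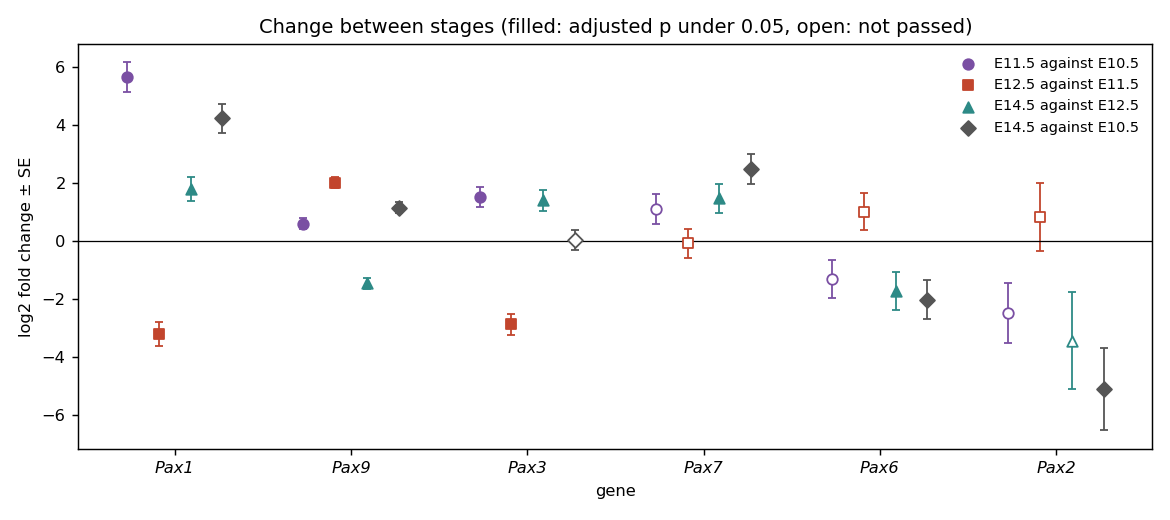
Log2 fold change ± SE (y axis) of each tested gene (x axis) at E11.5 against E10.5, E12.5 against E11.5, E14.5 against E12.5 and E14.5 against E10.5; filled markers passed an adjusted p of 0.05 and open ones did not. At E12.5 against E11.5, Pax9 is at 2.01, while Pax1 and Pax3 are at -3.22 and -2.89.

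Pax6 (ENSMUSG00000027168, plus strand, chr2:105668900-105697364) was low and uneven between libraries. It had 6.57, 6.33 and 3.45 CPM at E10.5, 1.71, 3.16 and 1.96 at E11.5, 0.926, 8.52 and 6.76 at E12.5, and 1.60, 0.424 and 3.01 at E14.5. E12.5 replicate 1 lay below all E10.5 and E11.5 libraries and the other two E12.5 libraries above every library of the other stages, so E12.5 overlapped every other stage. Pax6 fell by 2.03 at E14.5 against E10.5 (SE 0.67, adjusted p = 0.0151), a call lost without E14.5 replicate 2 (adjusted p = 0.0511) or with the percentage outside genes in the model (-1.28, adjusted p = 0.433). It fell by 1.74 at E14.5 against E12.5 (SE 0.67, adjusted p = 0.0461). Without E14.5 replicate 3 these values were -2.74 and -2.45. The steps at E11.5 and E12.5 did not pass (log2 fold changes -1.31 and 1.02, adjusted p = 0.163 and 0.209), although the difference at E12.5 passed without E12.5 replicate 1 (1.49, adjusted p = 0.0279). The difference at E11.5 passed with those 2 stages fitted alone (-1.27, adjusted p = 0.0189).

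The Pax6 calls depended on which libraries were used. The fall at E14.5 against E12.5 was lost in 8 of 12 fits that left out a library: without E10.5 replicate 1, any E11.5 library, E12.5 replicate 2 or 3, or E14.5 replicate 1 or 2, with adjusted p from 0.0532 to 0.190. The joint test over stages (adjusted p = 0.0426) was also lost in 8 of 12, when replicate 1 or 2 of E10.5, 1 or 3 of E11.5, 2 or 3 of E12.5, or 1 or 2 of E14.5 was left out, with adjusted p from 0.0524 to 0.101. DESeq2 gave 0.0656 for the fall and 0.0693 for the joint test, and limma-voom 0.145 and 0.103.

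Many genes of eye, olfactory epithelium and forebrain were low in E12.5 replicate 1, as Pax6 was. Otx2, a regulator of forebrain and sensory placodes, had 3.19, 29.7 and 18.4 CPM in E12.5 replicates 1, 2 and 3. Lhx2, a regulator of eye, forebrain and olfactory neurons, had 0.862, 41.6 and 26.3 CPM. Replicate 1 was low and replicate 2 high for both, as for Pax6. Of the 22 genes on that list, 0 were highest in E12.5 replicate 1 and 15 were lowest there, while 12 were highest in replicate 2 and 10 in replicate 3. Their summed level was 131.1 to 146.1 CPM at E14.5, 162.3, 345.2 and 301.8 CPM in E12.5 replicates 1, 2 and 3, 62.6 to 91.6 CPM at E11.5 and 121.6 to 142.9 CPM at E10.5. Genes of some other tissues were also low in that library, but not of all. All 12 genes of a surface epithelium list were lowest in replicate 1 and 11 highest in replicate 2, with sums of 827.1, 1464.5 and 1182.6 CPM in replicates 1, 2 and 3. Of 18 muscle genes 11 were lowest in replicate 1, as were 11 of 17 ear, kidney and thyroid genes. By contrast, 7 of 12 endothelium and blood genes were highest in replicate 1 and 0 lowest. Of 12 facial mesenchyme genes, 5 were highest and 3 lowest there, as were 5 and 3 of 12 neural crest and glia genes with a count. The part of these tissues in the Pax6 values was not tested. Pax6 itself was counted in every library.

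**Figure D5:**
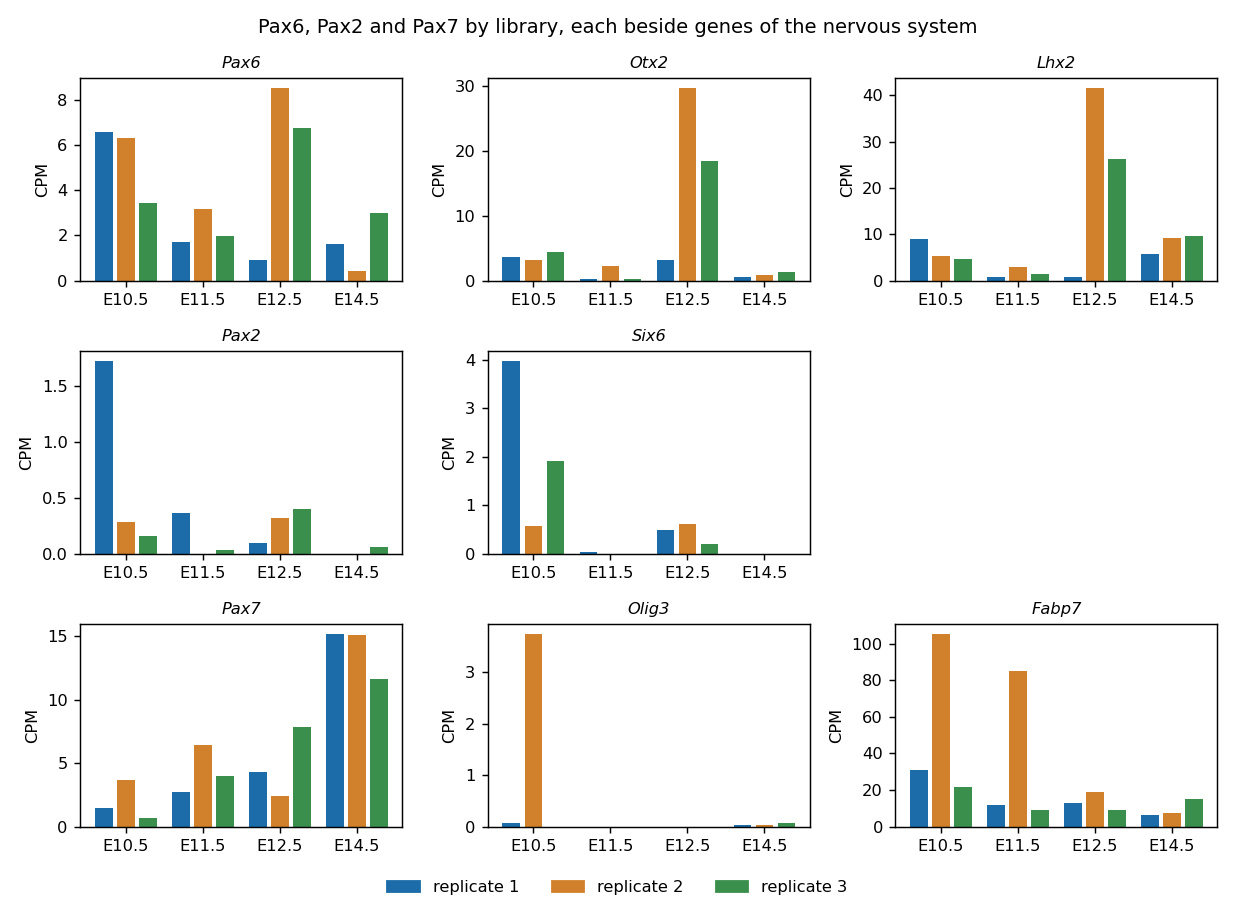
Level in each library (bars, CPM, a different scale in each panel) of Pax6 beside Otx2 and Lhx2, Pax2 beside Six6, and Pax7 beside Olig3 and Fabp7, by stage (x axis) and replicate (colour). Pax6, Otx2 and Lhx2 are low in E12.5 replicate 1 (0.926, 3.19 and 0.862 CPM), Pax2 and Six6 are highest in E10.5 replicate 1, and of the E10.5 libraries replicate 2 is the highest for Pax7, Olig3 and Fabp7.

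Pax2, known from optic stalk, ear and kidney (ENSMUSG00000004231, plus strand, chr19:44756045-44837871), had only 108 counts in the 12 libraries. Counts were 55, 9 and 5 at E10.5, 11, 0 and 1 at E11.5, 3, 10 and 12 at E12.5, and 0, 0 and 2 at E14.5. At E10.5 most of them came from replicate 1, with 1.72 CPM beside 0.283 and 0.157. Pax2 fell at E14.5 against E10.5 (log2 fold change -5.12, SE 1.43, adjusted p = 0.00424). With 1 library left out the value ran between -7.62 (without E14.5 replicate 3) and -3.43 (without E10.5 replicate 1, adjusted p = 0.0445). The count ratio was 0.0304 (95% exact interval 0.00361 to 0.114, counting error only), from 2 counts at E14.5 and 69 at E10.5. With the percentage outside genes in the model the fold change was -2.92 (adjusted p = 0.359). No step between consecutive stages passed edgeR's test (adjusted p = 0.0952, 0.569 and 0.0855). DESeq2 passed the fall at E14.5 against E12.5 (-3.73, adjusted p = 0.0387). By edgeR, E11.5 against E10.5 passed when E10.5 replicate 3 (0.0462) or E11.5 replicate 1 (0.0303) was left out, and E14.5 against E12.5 without E10.5 replicate 1 (0.0406). The joint test gave 0.0155, and 0.0987 without E10.5 replicate 1.

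E10.5 replicate 1 was also the highest of its stage for 10 of the 21 eye, olfactory and forebrain genes with a count at that stage. This was not particular to that list. The same library was highest for 7 of 12 facial mesenchyme and 6 of 12 surface epithelium genes, but for only 2 of 17 ear, kidney and thyroid genes. Six6, a factor of retina and pituitary, had 3.97, 0.567 and 1.91 CPM in the 3 libraries of E10.5. Pax2 and Six6 were both highest in replicate 1, although the summed level of the list was lowest there (121.6 CPM, beside 142.9 and 135.7 in replicates 2 and 3). The lens gene Cryaa was at 0 in all 3 libraries of E10.5. The part of eye tissue in the Pax2 values was not tested.

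Pax5, best known as the factor that commits cells to the B lineage (ENSMUSG00000014030, minus strand, chr4:44524757-44710487), had 16 counts at E10.5, 3 at E11.5, 11 at E12.5 and 21 at E14.5, summed over 3 libraries. Pax8, known from thyroid and kidney (ENSMUSG00000026976, minus strand, chr2:24420560-24475599), had 2, 3, 1 and 1. Pax5 shares 636 and 125 bases of exon with a pair of genes on the opposite strand, and Pax8 shares 367 with Gm13415, also on the opposite strand. These levels are close to the floor of 3 counts in a library, which is 0.0884 to 0.106 CPM at these depths. Without the filter on low counts, the joint test gave an adjusted p of 0.118 for Pax5 and 0.814 for Pax8. By counting error alone, the Pax5 count ratio was 0.191 at E11.5 against E10.5 (95% exact interval 0.0357 to 0.667) and 7.22 at E14.5 against E11.5 (2.16 to 37.8). The former did not pass edgeR's test without the filter (adjusted p = 0.105), and the latter was not tested over libraries. Pax4, the relative of Pax6 known from the pancreas and not among the 8 genes, had 1 count in all.

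Genes that work with Pax1 and Pax9, or act beside them in facial and vertebral mesenchyme, were described from a list of 16, all tested. At E11.5 against E10.5, 8 rose and 2 fell, where 25.1% of all genes passed. At E12.5 against E11.5, 12 rose and 3 fell (49.3% of all genes), with a median log2 fold change of 0.88. At E14.5 against E12.5, 4 rose and 6 fell (47.1% of all genes). These 3 percentages of all genes are the background for the other lists too. Osr2, a palatal regulator, averaged 64.3 ± 13.2 CPM at E11.5 and 6.12 ± 1.01 CPM at E10.5 (SD, n = 3 each; log2 fold change 3.36, adjusted p = 6.36e-08). Meox2, another mesenchymal regulator of the palate, rose by 2.60 at E12.5 against E11.5 (adjusted p = 5.24e-08), in the direction of Pax9. Msx2, a homeobox gene of facial mesenchyme, fell by 2.60 at the same step (adjusted p = 1.56e-05), in the direction of Pax1, with 7.95 ± 2.39 CPM at E12.5 and 41.2 ± 8.53 at E11.5. Tbx22, a cleft palate gene, averaged 7.02 ± 1.18 CPM at E14.5 and 49.1 ± 8.79 at E12.5, and fell by 2.89 (adjusted p = 4.02e-07).

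Of 9 genes of pharyngeal pouch, parathyroid and thymus, where Pax1 and Pax9 also act, 6 were tested. At E11.5 against E10.5, 3 fell and 3 did not pass. At E12.5 against E11.5, 3 rose and 3 did not pass, and at E14.5 against E12.5, 2 rose and 2 fell. Tbx1, a factor of pharyngeal endoderm and mesoderm and of oral epithelium, averaged 2.04 ± 0.504 CPM at E11.5 and 6.09 ± 3.46 at E10.5, and fell by 1.59 (adjusted p = 0.00242) at the step where Pax1 rose. Gcm2, the defining parathyroid gene, was at 0 in all 12 libraries. Foxn1, which defines thymic epithelium and is also used by hair and skin, averaged 1.70 ± 0.493 CPM at E14.5 and 0.162 ± 0.0860 at E12.5 (log2 fold change 3.29, adjusted p = 3.93e-05).

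Among 18 genes of skeletal muscle progenitors and myoblasts, all tested, 3 rose and 4 fell at E11.5 against E10.5, 13 rose and 5 did not pass at E12.5 against E11.5 (27.1% of all genes rose), and 13 rose and 5 fell at E14.5 against E12.5 (23.0% and 24.0% of all genes). Myod1, the myoblast determination factor, rose by 2.38 at E11.5 (adjusted p = 4.81e-06) and by 2.02 at E12.5 (adjusted p = 1.30e-06), each against the stage before. The list as a whole did not rise at E11.5 against E10.5 (median log2 fold change -0.23). Msc, for example, averaged 0.865 ± 0.137 CPM at E11.5 and 2.36 ± 0.649 at E10.5. At E12.5, where Pax3 fell, these muscle genes rose or did not pass. Mymk, the muscle fusion factor, averaged 26.0 ± 2.47 CPM at E14.5 and 3.28 ± 1.02 at E12.5, at the step where Pax7 and Pax3 were both higher.

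Of the 10 genes of the melanocyte lineage, a neural crest derivative in which Pax3 acts, 9 were tested. At E11.5 against E10.5, 1 fell and 8 did not pass, at E12.5 against E11.5, 2 rose and 1 fell, and at E14.5 against E12.5, 7 rose and 2 did not pass. Dct, a melanin synthesis enzyme, averaged 10.4 ± 1.45 CPM at E14.5 and 0.592 ± 0.0582 at E12.5 (log2 fold change 4.04, adjusted p = 6.56e-05). On the list of 13 neural crest and glia genes, 12 were tested, with 1 higher and 4 lower at E11.5, 5 higher and 3 lower at E12.5, and 4 higher and 2 lower at E14.5, each against the stage before. Foxd3, an early crest factor, was at 0 in all 12 libraries. Sox10, the factor of crest glia and melanoblasts, averaged 17.6 ± 2.61 CPM at E11.5 and 39.1 ± 11.4 at E10.5 (a fall of 1.19, adjusted p = 0.000851), the step at which Pax3 rose.

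Lists for the places where Pax6, Pax2, Pax5 and Pax8 are known to act were counted over the same 3 steps, each against the stage before. Of 22 eye, olfactory and forebrain genes, 17 were tested, with 1 higher and 5 lower at E11.5, 11 higher and 1 lower at E12.5, and 2 higher and 8 lower at E14.5. Of 16 midbrain-hindbrain, hindbrain and spinal cord genes, 9 were tested, with 1 higher and 1 lower, 4 higher and 5 not passing, and 2 higher and 4 lower. Of 17 ear, kidney and thyroid genes, 13 were tested, with 2 higher and 5 lower, 4 higher and 1 lower, and 2 higher and 4 lower. Of 10 B-lineage genes, 6 were tested, with 2 higher and 1 lower, 3 higher and 3 not passing, and 3 higher and 3 lower. Among all genes, 12.2% were higher and 12.9% lower at E11.5, 27.1% and 22.2% at E12.5, and 23.0% and 24.0% at E14.5. The most abundant B-lineage gene was Ebf1, which is also used by mesenchyme, with 89.8 ± 3.05 CPM at E14.5 and 53.6 ± 5.81 at E12.5. Rag1, on the same list, went the other way, with 1.72 ± 0.371 CPM at E14.5 and 7.41 ± 2.82 at E12.5.

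Transcripts of genes for Pax-binding proteins, corepressors and other cofactors were counted in every library. Of 17 such genes, all tested, 5 were higher and 2 lower at E11.5, 4 higher and 6 lower at E12.5, and 4 higher and 10 lower at E14.5, each against the stage before, where 25.1%, 49.3% and 47.1% of all genes passed. Eya4, a phosphatase and coactivator, averaged 61.6 ± 6.37 CPM at E11.5 and 30.7 ± 5.55 at E10.5, and fell by 1.19 at E14.5 against E12.5 (adjusted p = 9.72e-06). Tle2, a Groucho-type corepressor, rose at each step, by 0.77 at E11.5, 1.89 at E12.5 and 0.89 at E14.5 (adjusted p = 0.00492, 2.78e-06 and 0.000294). Paxbp1, which links Pax3 and Pax7 to histone methylation, fell by 0.44 at E11.5 (adjusted p = 0.0374) and rose by 0.79 at E12.5 (adjusted p = 0.000687), the reverse of Pax3 at both steps. The mean of Paxbp1 was 93.9 ± 3.16 CPM at E14.5 beside 83.7 ± 8.13 at E12.5, in the direction of Pax3 at that step.

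For 5 members with a mean of at least 1 CPM, the genes with the most similar course were found among 14519 genes by the root mean square difference of log2 CPM over the 12 libraries, each gene centred on its own mean. For Pax1 these were Gabrp (0.65), Cbln4 (0.709) and Cpxm2 (0.735), beside a median of 2.33 over all genes. Gabrp, a subunit of the GABA-A receptor, averaged 0.920, 32.8, 2.85 and 22.8 CPM at the 4 stages in order of age, the pattern of Pax1. For Pax9 they were Upk2 (0.342), Ppp2r2b (0.357) and Tmtc1 (0.371), with a median of 1.09. For Pax3 they were Nkd1 (0.528), Epha8 (0.54) and Irx5 (0.548), with a median of 1.22. For Pax7 they were Fam69c (0.509), Erbb4 (0.528) and Frrs1l (0.554), and for Pax6 Soga3 (0.54), Tubb3 (0.661) and Cntn2 (0.669), both with a median of 1.26. Likeness over 12 libraries that share stages is a description of these libraries. Tubb3 and Cntn2 are genes of neurons.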

How the data were processed

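Each deposited file gives raw counts of reads for every Ensembl gene in 1 library. The submitters' processing notes name the mm10 build and HTSeq 0.12.4, STAR 2.7.3a and FastQC, in no stated role. Annotation release and strand setting: not given in the sources used here. Per the labels' protocols, Trizol RNA from littermates was poly-T selected. The title of E14.5 replicate 1 names a pair of parts, used as 1 library. Symbols came from GENCODE (53620 of 53801 identifiers matched). Entries naming no gene, 14.3% to 18.6% of listed alignments, were left out.

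Tests used edgeR 4.0.16 in R 4.3.3. Low genes were removed with filterByExpr (minimum count 10), and TMM scaling was applied (factors 0.852 to 1.14, so fold changes differ slightly from CPM ratios). All 12 libraries entered 1 quasi-likelihood fit with a mean for each stage (8 residual degrees of freedom, biological coefficient of variation 0.142). No pair of libraries of a stage agreed within sampling noise (chi-square per degree of freedom at least 4.38). Intervals cover counting error only, since they were built from counts summed over the libraries of a stage. Reads carry no molecular identifiers, so repeated copies of a molecule cannot be told apart in them. Alternatives were DESeq2 1.42.0, limma-voom (limma 3.58.1), other filters, scalings, pseudocounts and covariates, a 2-fold minimum and each library left out.

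Members, lists and tests were chosen with earlier results of these data known. Named were all members, up to 4 passing genes per list and step with the largest change, and 3 nearest profiles per member. Named outside that rule, after values were seen, were Olig3, Fabp7, Cryaa, Gcm2, Foxd3 and Pax4.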

Additional observations from a re-analysis of the deposited data

How the results depend on the processing

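The number of Pax genes passing at E11.5 against E10.5 was 3, and became 6 without the low-count filter, when 35021 genes were tested, and 1 with a 2-fold minimum change. Without that filter the fold changes hardly moved (Pax1 5.68, Pax6 -1.30), but SEs shrank. The SE was 0.16 instead of 0.50 for Pax1 and 0.25 instead of 0.65 for Pax6, so less spread among libraries was allowed for. At E12.5 against E11.5 it was 3 and became 1 (Pax9) with the percentage of alignments outside genes in the model. At E14.5 against E12.5 it was 5, and 1 with the 2-fold minimum. Leaving out 1 library gave 3 to 5 there, with 3 (Pax1, Pax3 and Pax9) without E12.5 replicate 2 or E14.5 replicate 1 or 2. At E14.5 against E10.5 it was 5, became 2 (Pax1 and Pax7) with that term, and 3 with the 2-fold minimum. Small changes turned their sign: Pax7 at E12.5 against E11.5 (-0.08) was 2.22 with that term and -0.59 to 0.30 with a library left out, and Pax3 at E14.5 against E10.5 (0.04) was -0.24 to 0.24 with a library left out and 1.23 with that term. Over all genes, that term left 693 of 9047 calls at E12.5 against E11.5 and 7484 of 12932 at E14.5 against E10.5. SEs at E12.5 against E11.5 were larger with it, at 1.28 for Pax1 and 0.55 for Pax3, beside 0.41 and 0.36 in the main fit. The 2-fold minimum left 525 of 4615, 1014 of 9047, 1360 of 8646 and 4230 of 12932 in the 4 comparisons. The cause was not tested. Both paralogue ratios kept their side of the threshold under every pseudocount and library left out. Replicate numbers did not pair libraries (4 of 18 same-numbered pairs correlated above 0.1, range -0.119 to 0.177); with replicate number as a block, Pax7 at E12.5 against E11.5 was 0.038, Pax2 at E14.5 against E12.5 passed (adjusted p = 0.0478) and Pax6 did not (0.0746), and no other Pax call changed. Depth limits Pax2, Pax5 and Pax8.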
